A study of Rattus norvegicus with 6 samples.

Results

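Interleukin genes, gp130 cytokine genes and the genes of their receptor chains, 10 in all, were followed in cultured rat atrial fibroblasts: Il6, Il11, Lif, Il6st, Il15, Il7, Il2rg, Il33, Il1rl1 and Il1r1. They were taken by name as cytokine genes or signal-transducing receptor chains. All 10 were listed among the 40154 genes of the deposited count table, and all 10 were among the 14852 genes with enough counts to be tested. The fibroblasts came from the hearts of Sprague-Dawley rats aged 1 to 3 days, were separated from atrial myocytes by selective adhesion, and were grown in medium with fetal bovine serum. Transfection was with si-NC, the control siRNA, or with si-GPD1L, which targets the gene of a glycerol-3-phosphate dehydrogenase-like protein, and polyadenylated RNA was sequenced 24 h later, with 3 libraries in each group. All 6 samples carried the same strain label and the same treatment label, atrial differentiation. The digit that ends each si-GPD1L name was taken as a replicate number, but the sources used here do not say whether it numbers libraries of 1 siRNA or different siRNAs. The labels do not tie a library to an animal or a culture, so p-values measure the spread between these libraries, which may be technical or, in si-GPD1L, between siRNAs.

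Cytokines of the gp130 group, among them IL-6, IL-11 and LIF, bind a receptor chain of their own and then recruit the shared chain gp130, the product of Il6st, which signals through JAK kinases and STAT3. IL-15 and IL-7 signal through the common gamma chain, the product of Il2rg, mainly in lymphocytes. IL-33 is an alarmin held in the nucleus of stromal cells, and its receptor ST2, the product of Il1rl1, pairs with the accessory chain encoded by Il1rap. That accessory chain also pairs with the IL-1 receptor encoded by Il1r1. In the heart, IL-6, IL-11 and the IL-33 and ST2 pair are known for their study in fibrosis, and ST2 exists as a membrane receptor and as a soluble form made from the same gene.

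Stretches of promoter that hold a textbook binding motif are shown here for the members that had one, because interferon-stimulated genes and cytokine genes are known to be transcribed through such motifs. RefSeq promoters (assembly GRCr8, 250 bases before to 50 bases after the annotated start) matched 8 of the 10 genes, and 4 of the 8 held a match on either strand to at least 1 of 4 motifs. The share of all promoters with at least 1 of the 4 motifs was not computed. Lif and Il7 had no entry. Each stretch is written 5′ to 3′ along the gene with the matching bases in capitals.
Il6, NF-kB site, chr4:5894615-5894663, minus strand: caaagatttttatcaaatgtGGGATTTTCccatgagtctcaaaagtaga
Il11, AP-1 site, chr1:78098460-78098506, plus strand: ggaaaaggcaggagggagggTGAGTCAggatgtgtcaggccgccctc
Il6st, interferon-stimulated response element core, chr2:45810092-45810140, plus strand: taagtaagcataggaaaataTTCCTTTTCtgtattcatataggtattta
Il15, interferon-stimulated response element core, chr19:42544660-42544708, plus strand: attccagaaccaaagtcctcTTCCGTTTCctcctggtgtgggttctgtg
The first matching base lay 68 bases before the start in Il6, 142 in Il11, 120 in Il6st and 26 in Il15. Il6st held a further response element core 238 bases before its start, and Il15 an AP-1 site 176 bases before its start. Over all 33469 promoters, the response element core GAAANNGAA was present in 9.71%, the AP-1 site TGANTCA in 7.33% and the NF-kB site GGGANTTTC in 1.15%. The gamma-activated site TTCNNNGAA, the motif read by STAT proteins, was present in 8.87% of all promoters and in 0 of these 8. These matches describe letters in a window and are not measured binding.

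The labels were first checked on the targeted gene. Gpd1l (chromosome 8) was counted 265, 314 and 321 times under the si-NC label and 202, 229 and 303 times under the si-GPD1L label. The groups overlapped, and the log2 fold change of -0.31 ± 0.15 (SE, n = 3 per group) did not pass (edgeR quasi-likelihood test, Benjamini-Hochberg adjusted p = 0.234; exact two-sided permutation p = 0.20, where 3 against 3 allows no less than 0.10). Every direction below therefore refers to the libraries as labelled. Library totals ran from 16892255 to 20149732 gene counts, and 0 counts of a gene allow up to 3 for counting error alone. Within a group the libraries differed beyond counting noise (chi-square per degree of freedom 3.89 to 27.4), and si-NC replicate 1 stood farthest from its group. Of 11 fibroblast markers, 2 were lower, Dcn and Lum, and 9 did not pass. Of 33 interferon-stimulated genes listed, 32 were in the count table. All 32 were higher in the si-GPD1L libraries, with a median log2 fold change of 4.10, as was known from earlier results of these data.

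Of the 10 genes, 1 differed between the groups: Il1rl1 was lower in the si-GPD1L libraries. None was higher by edgeR's quasi-likelihood test with Benjamini-Hochberg adjustment over all tested genes. Over all genes tested, 4.03% were called higher and 2.33% lower. At an unadjusted p under 0.05 the members counted 3 higher and 2 lower, DESeq2 called 0 and 0, and edgeR's exact test called 2 and 1. Of all 14852 genes tested, both directions together, 3324 had an unadjusted quasi-likelihood p under 0.05. Of the same 14852 genes, DESeq2 called 1175 and edgeR's exact test 1528. With the additional threshold of an absolute log2 fold change over 1, used in the study's methods, 1.48% of all genes were higher, 0.135% were lower, and 0 of the 10 members were called. In 3 members every si-GPD1L library lay above every si-NC library (Lif, Il2rg, Il1r1), where 15.1% of all genes did so, and in 2 members every one lay below (Il15, Il1rl1), where 13.9% did so. The median log2 fold change was 0.04 over the members and -0.0049 over all genes.

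**Figure D1:**
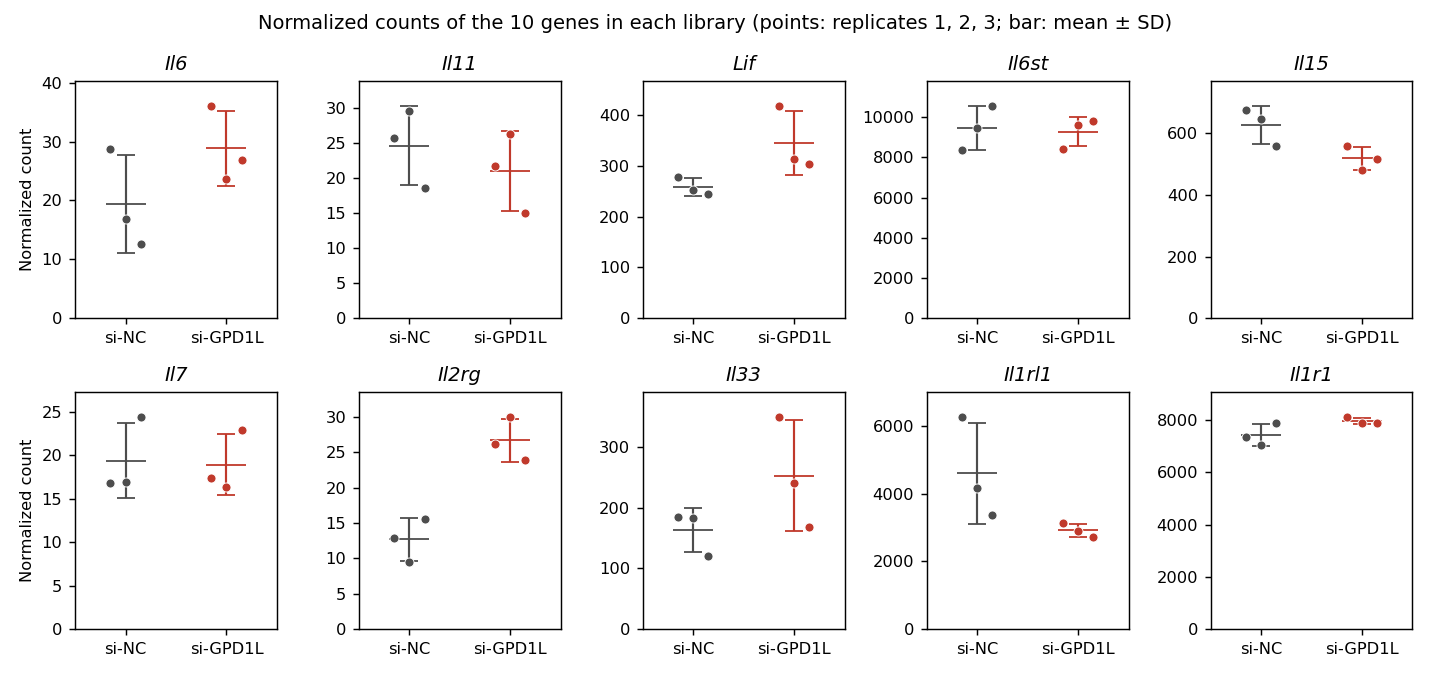
Normalized count (vertical axis, from 0, its own scale in each panel) of each of the 10 genes in the 3 si-NC (grey) and 3 si-GPD1L (red) libraries, with points in the order of replicates 1, 2 and 3 and bars for mean ± SD. The groups do not overlap for Lif, Il15, Il2rg, Il1rl1 and Il1r1, and overlap for the other five.

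None of the 3 gp130 cytokines passed edgeR's quasi-likelihood test. Lif, a cytokine of the IL-6 family, had 277.8, 252.9 and 244.0 normalized counts (counts scaled to the mean library size) in si-NC and 417.6, 313.5 and 304.4 in si-GPD1L. The groups did not overlap, with si-GPD1L replicate 1 well above the other libraries. The log2 fold change of Lif was 0.42 ± 0.13 (SE, n = 3 per group, 1.33-fold with a 95% interval of 1.10 to 1.62), and it missed the threshold (edgeR quasi-likelihood, adjusted p = 0.0780). Without si-GPD1L replicate 1 its log2 fold change was 0.26 (adjusted p = 0.310, same test), and without si-NC replicate 1 it was 0.47 and passed (adjusted p = 0.0235).

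Il6, the founding cytokine of the group, had 28.7, 16.9 and 12.7 normalized counts in si-NC and 35.98, 23.6 and 26.9 in si-GPD1L. The highest si-NC library lay above 2 of the 3 si-GPD1L libraries. Its log2 fold change was 0.56 ± 0.34 (edgeR quasi-likelihood, adjusted p = 0.368), and counting error alone was 20.4% of a library's value. Il11, a cytokine much studied in fibroblasts, had 25.7, 29.6 and 18.5 in si-NC and 21.8, 26.4 and 15.0 in si-GPD1L. These ranges overlapped almost fully, with a log2 fold change of -0.22 ± 0.32 (adjusted p = 0.746, same test). The 95% intervals were wide, -0.19 to 1.30 for Il6 and -0.91 to 0.48 for Il11 on the log2 scale, so a change of either gene within them was not excluded. For Il6 the si-NC libraries spread beyond counting error (SD 42.6% of the mean).

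Il6st, the shared gp130 chain, had 8381.5, 9459.1 and 10540.1 normalized counts in si-NC and 8440.7, 9605.3 and 9808.4 in si-GPD1L. The groups lay over each other. The log2 fold change of Il6st was -0.03 ± 0.09 (edgeR quasi-likelihood, adjusted p = 0.901), with a 95% interval of -0.23 to 0.18, and it turned positive when si-NC replicate 3 or si-GPD1L replicate 1 was left out.

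Among 18 genes of the gp130 family, 15 were tested and 0 were higher (edgeR quasi-likelihood with adjusted p under 0.05), with a median log2 fold change of -0.03. At an unadjusted p under 0.05 there was 1 higher, DESeq2 called 0 higher and edgeR's exact test 1. The ligand-binding chains Il6r (0.11), Il11ra1 (-0.24), Lifr (0.04) and Osmr (-0.13) did not pass, where each value is a log2 fold change.

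Of 12 genes that gp130 signaling is known to induce, all tested, 0 were higher and 2 were lower, with a median log2 fold change of -0.07. At an unadjusted p under 0.05 there were 1 higher and 3 lower, and neither DESeq2 nor edgeR's exact test called any of them higher. Cebpb, a transcription factor of the acute phase response, had 1667.8, 2101.3 and 1874.8 normalized counts in si-NC against 1333.4, 1390.5 and 1313.5 in si-GPD1L, for a log2 fold change of -0.48 ± 0.09 (edgeR quasi-likelihood, adjusted p = 0.00513). Serpina3n, a secreted protease inhibitor, had 198.7, 190.5 and 255.7 against 104.7, 110.0 and 163.7, a log2 fold change of -0.77 ± 0.18 (adjusted p = 0.0260, same test). In both genes all si-GPD1L libraries lay below all si-NC libraries. Socs3, the feedback inhibitor of gp130, had a log2 fold change of -0.33 and missed the threshold (edgeR quasi-likelihood, adjusted p = 0.0698), and it was chosen for mention after its values were seen. Timp1, the list's most abundant gene in si-NC, had a log2 fold change of -0.08 (adjusted p = 0.659).

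Il1rl1 was the member that fell, while its ligand Il33 did not pass. Il1rl1 (chr9:47133483-47184316, plus strand, rn6) had 6273.8, 4160.3 and 3387.5 normalized counts in si-NC and 3132.3, 2894.6 and 2730.8 in si-GPD1L. Every si-GPD1L library lay below every si-NC library, but the si-NC libraries were spread widely (SD 32.4% of the mean, against 6.92% in si-GPD1L). The highest, si-NC replicate 1, was also the library that stood farthest from its group over all genes. The log2 fold change of Il1rl1 was -0.66 ± 0.17 (SE, n = 3 per group), or 0.634-fold with a 95% interval of 0.492 to 0.816, and it passed (edgeR quasi-likelihood, adjusted p = 0.0386).

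The size of the Il1rl1 difference depended on that library. Without si-NC replicate 1 the log2 fold change of Il1rl1 was -0.37 and still passed (edgeR quasi-likelihood, adjusted p = 0.00217). The call was lost without si-NC replicate 2 (adjusted p = 0.0672), without si-GPD1L replicate 1 (0.111), replicate 2 (0.157) or replicate 3 (0.138), and with DESeq2's Wald test (0.128), while the log2 fold change stayed between -0.84 and -0.37 in all alternatives run. In bulk RNA, fewer cells that make a transcript and less of the transcript per cell cannot be told apart. Mast cells and lymphocytes also carry ST2. Of their markers, 7 of 11 for mast cells (Cpa3, Tpsb2, Tpsab1, Mcpt1, Cma1, Fcer1a and Ms4a2) and 9 of 17 for lymphocytes, Cd3e and Cd3d among them, were at 0 in every library. In each list 2 markers were tested and none passed, with log2 fold changes of 0.10 and 0.22 for mast cells and -0.15 and 1.03 for lymphocytes. The summed mast cell list ran from 273 to 349 normalized counts in si-NC and from 302 to 358 in si-GPD1L, and the summed lymphocyte list from 90.0 to 103 and from 73.0 to 103. The part of these cells in the Il1rl1 values was not tested.

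The genes whose pattern over the 6 libraries was most like Il1rl1, among 11031 named genes with at least 50 normalized counts on average, were ribosomal protein genes. Pearson's r of log2 values was 0.999 for Rpl21 and 0.998 for Rps3 and Rpl24, given as a description over libraries that share depth and group. Their log2 fold changes were -0.31 for Rpl21, -0.17 for Rps3 and -0.24 for Rpl24, and none passed (edgeR quasi-likelihood, adjusted p = 0.0879, 0.234 and 0.141).

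Il33, the ligand of ST2, had 184.9, 184.1 and 121.0 normalized counts in si-NC and 350.0, 241.7 and 167.7 in si-GPD1L. The lowest si-GPD1L library lay under 2 of the si-NC libraries, so the groups overlapped. The log2 fold change of Il33 was 0.63 ± 0.23 (edgeR quasi-likelihood, adjusted p = 0.133), with 0.33 when si-GPD1L replicate 1 was left out and 0.85 when replicate 3 was, where it passed (adjusted p = 0.0486). It also passed without si-NC replicate 1 (0.73, adjusted p = 0.0440). Endothelial markers are genes of a cell type in which Il33 is known to be made. Of 11 tested, 5 were higher (Pecam1, Cdh5, Tie1, Plvap and Erg), against 4.03% of all genes tested. Of these markers 0 were lower by edgeR or DESeq2 or at an unadjusted p under 0.05. The summed list ran from 1990 to 2468 normalized counts in si-NC and from 2774 to 2883 in si-GPD1L. Of 11 fibroblast markers, 0 were higher and 2 were lower. The part of either cell type in the Il33 values was not tested.

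Il1r1, the signaling receptor of IL-1, had 7351.4, 7042.5 and 7889.5 normalized counts in si-NC and 8116.9, 7909.5 and 7906.0 in si-GPD1L. The groups did not overlap, although the nearest libraries were 7889.5 and 7906.0. Its log2 fold change was 0.10 ± 0.07 (edgeR quasi-likelihood, adjusted p = 0.434), with a 95% interval of -0.05 to 0.26. Il1r1 and Il1rl1 lie on the same strand of chromosome 9, Il1r1 at chr9:46962291-47038139 in rn6.

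Il1rap, the accessory chain that both receptors use, rose. It had 225.4, 213.7 and 175.7 normalized counts in si-NC and 357.6, 339.0 and 319.4 in si-GPD1L, giving a log2 fold change of 0.72 ± 0.12 (edgeR quasi-likelihood, adjusted p = 0.00243). All si-GPD1L libraries lay above all si-NC libraries, and the call held in all 13 alternatives. In deposited TPM, Il1rl1 stood at 22.6, 15.8 and 15.7 times the level of Il1rap in the si-NC libraries and at 7.13, 6.95 and 6.96 times in the si-GPD1L libraries. The level of Il1r1 relative to Il1rl1 was 1.10, 1.59 and 2.19 in si-NC and 2.43, 2.56 and 2.72 in si-GPD1L. Both ratios separated the groups, and both were chosen after the values were seen and carry no test. Both also rest on the listed gene lengths. The TPM of Il1rl1 takes in all its transcripts, and which of them encode the membrane or the soluble form was not assigned here.

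Of 26 genes of the IL-1 family, 17 were tested, 2 were higher, 1 was lower, and the median log2 fold change was 0.04. Besides Il1rap the higher gene was Il18bp, which encodes a secreted inhibitor of IL-18, with a log2 fold change of 0.47 ± 0.13 (edgeR quasi-likelihood, adjusted p = 0.0484). Il1rl1 was the lower one. Among the remaining ligands, Il1rn, the antagonist of Il1r1, had between 49.7 and 96.8 normalized counts and Il18 between 6.9 and 17.97, and neither passed. Il1a and Il1b, the agonists of Il1r1, reached at most 3.0 and 4.5 normalized counts, Il36b at most 1.0, and Il36a, Il36g, Il36rn and Il1f10 were at 0 counts in every library.

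Of 15 genes that IL-1 and NF-kB are known to induce, 10 were tested, 1 was higher and 0 were lower, with a median log2 fold change of 0.15. At an unadjusted p under 0.05 there were 3 higher and 0 lower. DESeq2 and edgeR's exact test each called 1 higher and 0 lower. Tnfaip3, an inhibitor of NF-kB, had 161.1, 153.4 and 191.3 normalized counts in si-NC and 251.8, 289.9 and 203.6 in si-GPD1L, for a log2 fold change of 0.56 ± 0.15 (edgeR quasi-likelihood, adjusted p = 0.0418). The groups did not overlap. Ccl2, the list's most abundant gene in si-NC and a chemokine for monocytes, had a log2 fold change of -0.16 (adjusted p = 0.593), and Csf2 and Csf3 were at 0 in every library.

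**Figure D2:**
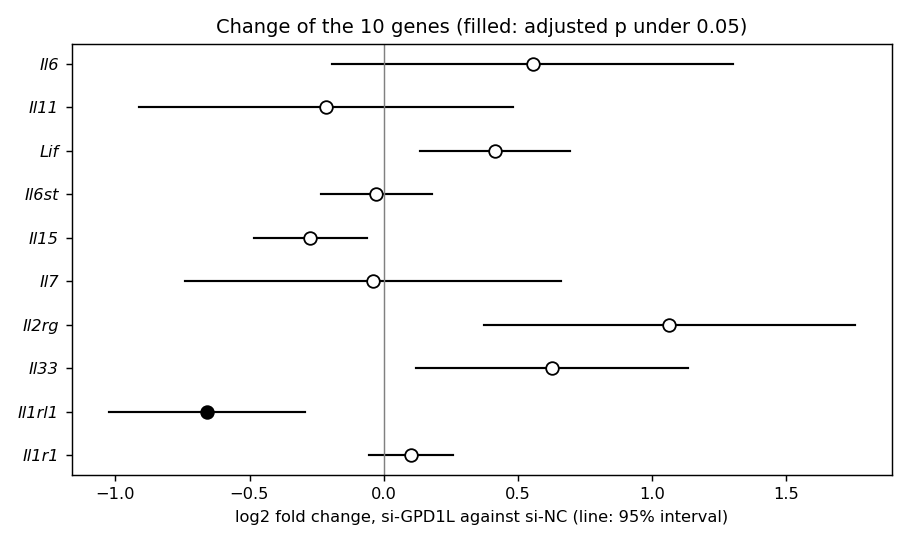
log2 fold change of si-GPD1L against si-NC (horizontal axis) for each of the 10 genes, with 95% intervals as lines and a filled point where the edgeR quasi-likelihood adjusted p is under 0.05. Only Il1rl1, at -0.66, is filled, and Il6, Il11, Il7 and Il2rg have the widest intervals.

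Il2rg, the common gamma chain, had the largest fold change of the 10 on few counts. It had 12.9, 9.5 and 15.6 normalized counts in si-NC and 26.2, 30.0 and 24.0 in si-GPD1L. The groups did not overlap, and the lowest si-GPD1L library stood above the highest si-NC library. The log2 fold change of Il2rg was 1.07 ± 0.32 (2.09-fold, 95% interval 1.29 to 3.38), and it missed the threshold (edgeR quasi-likelihood, adjusted p = 0.0675). It passed with edgeR's exact test (adjusted p = 0.0183) and missed with DESeq2 (0.115). Counting error alone was 22.5% of a library's value. Of 16 macrophage markers, cells that also make this chain, none passed (1 higher at an unadjusted p under 0.05, 0 by DESeq2, 1 by edgeR's exact test), and the summed list ran from 3295 to 3564 normalized counts in si-NC and from 2779 to 4005 in si-GPD1L. Their part in the Il2rg values was not tested.

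Il15, a ligand of that chain, had 674.2, 645.4 and 557.3 normalized counts in si-NC and 557.1, 479.9 and 517.0 in si-GPD1L. The groups were barely separated, with the nearest libraries at 557.3 and 557.1. The log2 fold change of Il15 was -0.27 ± 0.10 (95% interval -0.48 to -0.06) and missed the threshold (edgeR quasi-likelihood, adjusted p = 0.118). It passed without si-NC replicate 3 (-0.35, adjusted p = 0.0388). Il7, the other ligand, had 16.8, 16.9 and 24.4 in si-NC and 17.4, 16.4 and 23.0 in si-GPD1L. These values lay on top of each other, with a log2 fold change of -0.04 ± 0.32 (adjusted p = 0.961, edgeR quasi-likelihood). The 95% interval was -0.74 to 0.66, and a change within it was not excluded. The sign of Il7 turned when si-NC replicate 3, si-GPD1L replicate 1 or si-GPD1L replicate 2 was left out.

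Of 21 genes listed with the common gamma chain family, 20 were in the count table (Il7r was not analysed here) and 11 were tested, with 1 higher, 1 lower and a median log2 fold change of 0.02. Il4r, the receptor chain of IL-4 and IL-13, rose from 1234.8, 1399.8 and 1448.3 normalized counts to 2232.8, 1893.1 and 1876.4, a log2 fold change of 0.56 ± 0.09 (edgeR quasi-likelihood, adjusted p = 0.00243). Tslp is a cytokine of barrier tissues that uses the IL-7 receptor chain but not the common gamma chain itself. It fell from 128.5, 96.3 and 127.8 to 52.3, 76.3 and 75.9, a log2 fold change of -0.78 ± 0.19 (adjusted p = 0.0324, same test). In both genes the groups did not overlap. Jak1, the most abundant of the list in si-NC, had a log2 fold change of -0.06 (adjusted p = 0.669). The lymphocyte ligands Il2, Il4, Il9 and Il21 were at 0 counts in every library, and Il15ra, the chain that presents IL-15, had between 1.1 and 8.0 normalized counts and was not tested.

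**Figure D3:**
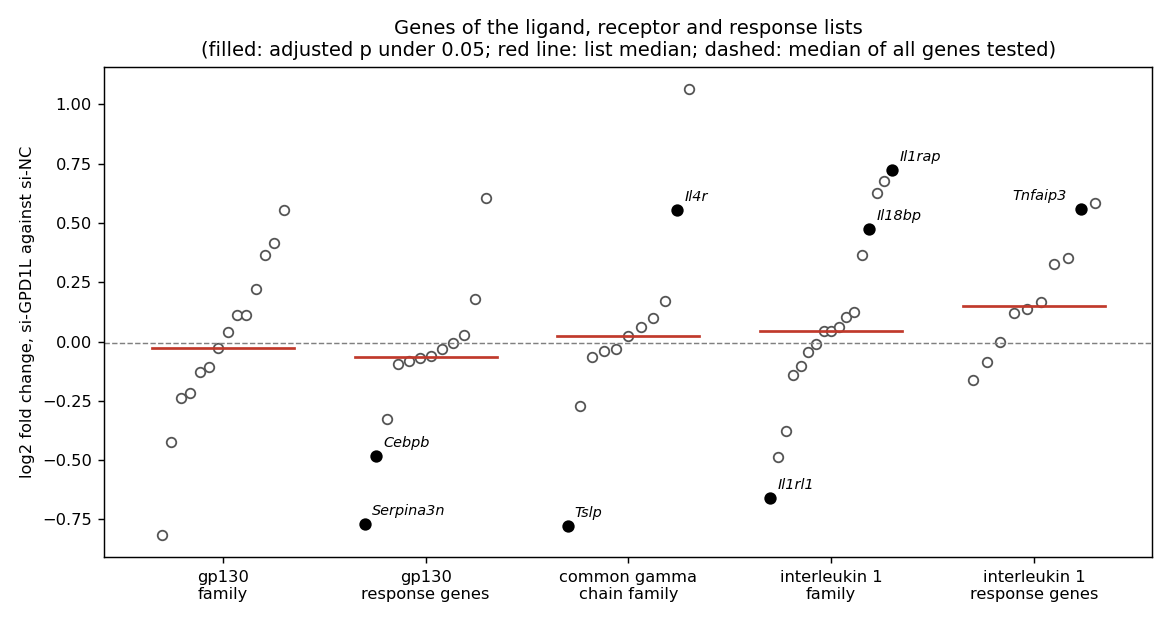
log2 fold change of si-GPD1L against si-NC (vertical axis) of each tested gene in 5 lists, sorted within a list, with filled and named points where the edgeR quasi-likelihood adjusted p is under 0.05. A gene not reported here is left out of the plot. Red lines are list medians, between -0.07 and 0.15, and the dashed line is the median of all genes, -0.0049.

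Among the list genes outside the members that passed and are named here, Il1rap, Il4r and Cebpb passed in all 13 alternatives run (edgeR quasi-likelihood and its alternatives). Serpina3n and Il12rb2 passed in 10, Tslp and Tnfaip3 in 9, Il16 in 6 and Il18bp in 5. Each of these 6 lost its call when certain single libraries were left out, with the highest adjusted p at 0.227 for Tnfaip3.

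Beyond the members, the table held 71 genes whose symbols start as interleukin names, some of them in the families above, of which 29 were tested and 16 were at 0 in every library. Of the 29, 4 were higher (Il16, Il18bp, Il1rap and Il4r) and 1 was lower, against the 4.03% and 2.33% over all genes. Il16, a chemoattractant precursor, had a log2 fold change of 0.54 ± 0.14 (edgeR quasi-likelihood, adjusted p = 0.0455). Il12rb2, a chain of the IL-12 receptor, had 103.8, 74.1 and 83.9 normalized counts in si-NC and 48.0, 49.99 and 48.9 in si-GPD1L, giving a log2 fold change of -0.83 ± 0.19 (adjusted p = 0.0233, same test). Il11ra1, the most abundant of these genes in si-NC, did not pass (-0.24, adjusted p = 0.116).

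The members moved little beside the interferon-stimulated genes, which were read in the same libraries. That list was taken as context because earlier results of these data had shown it higher in si-GPD1L, so its direction is not a new result. All 32 of its genes in the count table were tested and higher, none was lower by any tool, and their log2 fold changes ran from 1.43 to 9.42. Their part in the values of the members was not tested. Mx2, an antiviral GTPase, had 4.9, 7.4 and 8.8 normalized counts in si-NC and 4691.3, 5535.6 and 4479.5 in si-GPD1L, for a log2 fold change of 9.42 ± 0.16 (edgeR quasi-likelihood, adjusted p = 3.54e-12). Mx1 (8.28), Ifit1 (6.30) and Oasl2 (4.24) followed by the rule of smallest adjusted p, each value a log2 fold change. Ifi27, the list's most abundant gene in si-NC, had 376 ± 27.9 TPM there and 1556 ± 75.4 TPM in si-GPD1L. Summed, the list ran from 8137 to 9058 normalized counts in si-NC and from 55290 to 64848 in si-GPD1L. The members with a response element core in their promoter, Il6st and Il15, had log2 fold changes of -0.03 and -0.27, and neither passed. The part of the motif in these values was not tested.

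Levels were compared between genes only as deposited TPM within a group, which follows the single length listed for each gene. For Il1rl1 that length was 8989 bases, while its most counted transcript, NM_013037.1, has 2585. Its place in the order therefore depends on the length used. In si-NC the receptor chains came first, with Il6st at 123.9 ± 19.6 TPM, Il1r1 at 99.3 ± 8.65 and Il1rl1 at 64.9 ± 17.7 (mean ± SD, n = 3). The ligands followed, with Il15 at 15.9 ± 1.07 TPM, Lif at 11.7 ± 0.228, Il33 at 8.11 ± 1.64, Il6 at 2.35 ± 0.879 and Il11 at 1.88 ± 0.421. Il2rg at 0.998 ± 0.257 TPM and Il7 at 0.547 ± 0.142 closed the order. Il6st and Il1r1, and Il6 and Il11, overlapped between libraries, and the other neighbours did not. In si-GPD1L the order was Il6st (128 TPM), Il1r1 (113), Il1rl1 (44.0), Lif (16.6), Il15 (14.0), Il33 (13.4), Il6 (3.74), Il2rg (2.23), Il11 (1.70) and Il7 (0.563). There Lif overlapped with Il15, Il15 with Il33, and Il2rg with Il11.

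The shared chain Il6st exceeded its ligand-binding partners in every library. Its TPM was 29.3, 27.0 and 35.9 times that of Il6r in si-NC and 25.8, 29.3 and 28.1 times in si-GPD1L. Relative to Lifr it was 26.6, 21.9 and 21.1 times in si-NC, and relative to Osmr, the oncostatin M receptor, 1.32, 1.54 and 1.60 times. These ratios lay in like ranges in si-GPD1L, at 20.6 to 23.5 for Lifr and 1.58 to 1.62 for Osmr. Among the gp130 ligands Lif exceeded Il6 by 3.60, 5.54 and 7.14 times in si-NC and by 4.31, 4.92 and 4.19 times in si-GPD1L.

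**Figure D4:**
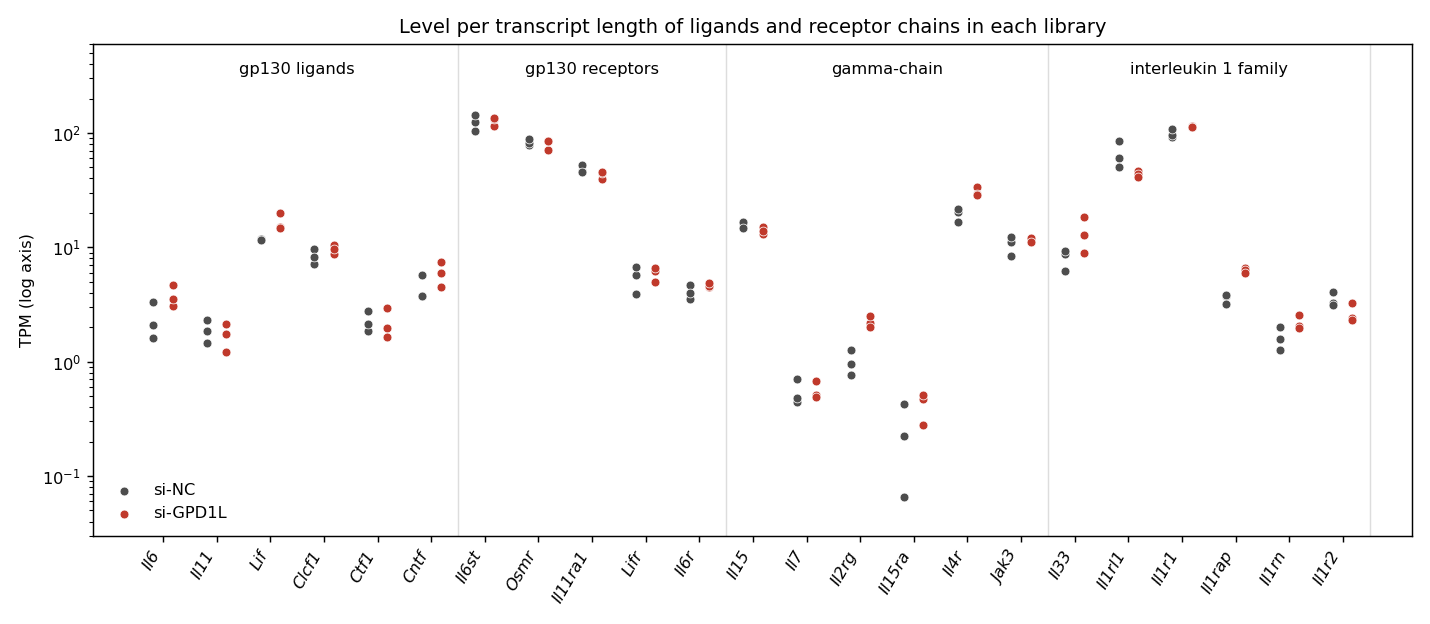
TPM (vertical axis, log scale) of gp130 ligands, gp130 receptors, common gamma chain genes and IL-1 family genes, with each point 1 of the 3 si-NC (grey) or 3 si-GPD1L (red) libraries. Il6st and Il1r1 lie near 100 TPM, the ligands lie under 20, and Il15ra lies under 1.

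The deposited transcript counts list 44 transcripts of the 10 genes, of which 43 were tested within 37822 transcripts. Of the 43, 1 was higher and 11 were lower (edgeR quasi-likelihood, adjusted p under 0.05), where 3.58% and 2.3% of all transcripts were. The transcripts of a gene can share reads and are not independent. All 7 transcripts of Il1rl1 were lower, with log2 fold changes from -0.72 to -0.63 and adjusted p from 0.0239 to 0.0333. The most counted of them, NM_013037.1, had 2.28, 2.12 and 2.04 times the counts of XM_006244739.3 in si-NC and 2.07, 2.002 and 2.09 times in si-GPD1L, so the balance between these transcripts lay in overlapping ranges.

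Of the 10 transcripts of Il15, 4 were lower, from XM_017601185.1 at -0.42 to XM_017601188.1 at -0.54 on the log2 scale (edgeR quasi-likelihood, adjusted p = 0.0305 and 0.0369), although the gene as a whole missed the threshold. The other 6 Il15 transcripts did not pass: NM_013129.2, XM_008772363.2, XM_017601189.1 and XM_008772423.2 had log2 fold changes of -0.41, -0.33, -0.29 and -0.25, XM_008772424.2 had -0.02 and XM_017601190.1 had 0.18. XM_017601188.1 had 3.18, 2.54 and 2.77 times the counts of XM_008772424.2 in si-NC and 2.16, 2.17 and 1.65 times in si-GPD1L. The ratio did not overlap between the groups, but the pair was chosen after its values were seen and carries no test. The transcript NM_080889.1 of Il2rg was higher (1.16 ± 0.31, adjusted p = 0.0484, same test), with 12.2, 9.5 and 13.6 normalized counts in si-NC and 26.0, 29.8 and 23.8 in si-GPD1L. The 4 transcripts of Lif (0.39 to 0.47) and the 2 of Il33 (both 0.60) did not pass.

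The number of transcript calls depended on which library was left out. Without si-NC replicate 2 or si-GPD1L replicate 1 1 transcript was called lower, and without si-GPD1L replicate 2 or replicate 3 it was 0 (edgeR quasi-likelihood), where 11 were lower without si-NC replicate 1 and 12 without si-NC replicate 3.

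**Figure D5:**
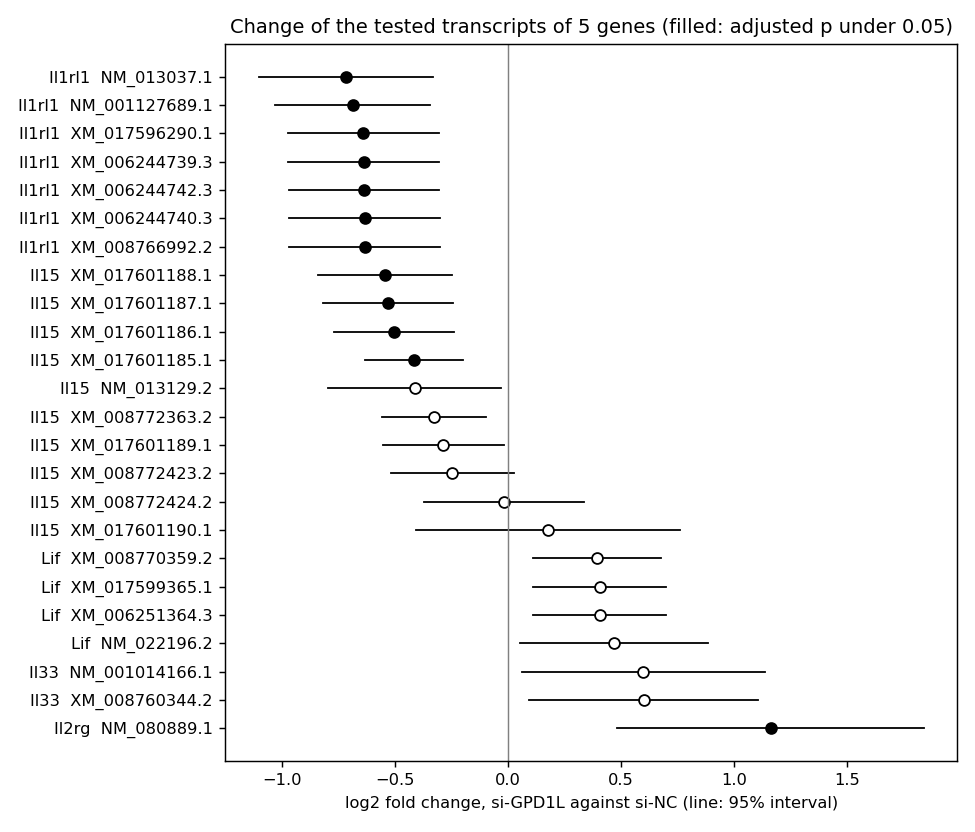
log2 fold change of si-GPD1L against si-NC (horizontal axis) of each tested transcript of Il1rl1, Il15, Lif, Il33 and Il2rg, with 95% intervals as lines and filled points where the edgeR quasi-likelihood adjusted p is under 0.05. All 7 transcripts of Il1rl1, 4 of Il15 and 1 of Il2rg are filled.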

How the data were processed

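The authors deposited whole-number read counts per gene and per transcript, with TPM (counts per length, scaled to 1000000 per library) for the same genes. The submitters' processing notes name bcl2fastq, HISAT2 2.1.0, HTSeq 0.12.4 and the build rn6. Whether counting used strand is not given in the sources used here. The authors' own comparison (fold changes, p-values, enrichment terms) was not used. From the deposited counts, edgeR 4.0.16 (under R 4.3.3) filtered low genes (filterByExpr), applied TMM factors and ran its quasi-likelihood F test with Benjamini-Hochberg adjustment over all genes, called at an adjusted p under 0.05. A normalized count is scaled to the mean library size. SE is the absolute log2 fold change over the square root of F, and intervals are 95%. The TPM served levels within a group only. DESeq2 1.42.0, edgeR's exact test, other scalings and filters, the replicate block and each library left out were alternatives. On simulated counts the test recovered 189 of 196 changed genes and called 14 of the rest. Recovery at the members' own fold changes and spreads was not tested. The members and lists were chosen with earlier results of these data known.

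Named genes were all members, Gpd1l, each list's called genes when at most 8 (otherwise the 4 with the smallest adjusted p), each list's gene of highest si-NC TPM, and the 3 genes most like a called member. Genes named outside this rule were chosen after their values were seen. Replicate numbers did not pair the libraries (correlations of deviations from -0.016 to 0.044). Transcript counts sum to more than gene counts, and no library differed from another of its own group by less than counting noise. A gene that the rule names is not reported here.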

Additional observations from a re-analysis of the deposited data

How the results depend on the processing

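Among the 10 members, directions held in all alternatives except for Il6st and Il7. Leaving out single libraries took Il6st from -0.11 to 0.057, positive at 0.057 (si-NC replicate 3 left out) and 0.03 (si-GPD1L replicate 1), and Il7 from -0.20 to 0.16, positive at 0.16 (si-NC replicate 3), 0.01 (si-GPD1L replicate 1) and 0.06 (si-GPD1L replicate 2). All of these missed the threshold.

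Members called lower numbered 1 in the reported test and 0 with DESeq2, with an absolute log2 fold change over 1 or with an adjusted p under 0.01, and 0 to 2 when single libraries were left out. Members called higher numbered 0, but 2 with edgeR's exact test (Lif, Il2rg), 2 without the count filter (Lif, Il33) and 0 to 2 when single libraries were left out. Pathway list genes called higher numbered 5, or 3 with upper-quartile normalization and 2 to 5 over the left-out libraries, and those called lower 5, or 1 to 6. With at least 10 counts in every library, 21 interferon-stimulated genes stayed in the test and all 21 passed. Member transcripts called higher numbered 1, or 0 without the count filter and 0 to 5 over the left-out libraries, and those called lower 11, or 0 to 12. Where no value shows it, the cause was not tested.

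The replicate number as a block, which the deviations did not bear out as a pairing, gave 2 members called higher (Lif, Il33) and 1 lower (Il1rl1), 2 pathway list genes called higher, 2 member transcripts called higher and 921 genes in all against 945. Counting error limits Il6, Il11, Il7 and Il2rg, which had under 40 normalized counts in every library.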
